A study of Medicago truncatula with 15 samples.

Results

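The shoot apex carries the meristem that produces leaves while a plant is vegetative and inflorescences once it flowers. The comparison described here set the shoot apices of *Mtsoc1a* mutants of the legume *Medicago truncatula* against those of WT plants. Its members were 6 of the 15 RNA-seq libraries of the series, chosen by their labels: 3 of *Mtsoc1a* apices and 3 of WT apices. Both genotypes were in the R108 background and 15 days old, and *Mtsoc1a* carried a *Tnt1* retrotransposon insertion in *MtSOC1a*. The plants came from germinated seed kept in the cold for 3 weeks and then grew in long days (16 h light at 22 °C), which together make the vernalized long-day regime, VLD. Each apex library held the upper parts of 3 primary stems from 3 plants, harvested 4 h after dawn. The mutant line was 1 insertion allele, so effects of the insertion in *MtSOC1a* and of other differences between the lines cannot be told apart. The other 9 libraries came from expanded leaves of the same genotypes and age (3 of *Mtsoc1a* and 3 of WT, each of 2 leaves from 2 plants) and from apices of 83-day-old triple mutants made by CRISPR-Cas9 against *MtSOC1a*, *MtSOC1b* and *MtSOC1c* in R108 (3 libraries).

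SOC1 proteins are MADS-domain transcription factors that promote flowering in Arabidopsis, where they join signals from day length, cold, age and gibberellin (GA). They act with FD and the FT florigens on genes that give the meristem a floral identity, among them *LEAFY*, *APETALA1* and the *FRUITFULL* genes. *TFL1* keeps the Arabidopsis inflorescence meristem from becoming floral, and SVP is a MADS-domain repressor of flowering there. Medicago has 3 *SOC1* genes, *MtSOC1a*, *MtSOC1b* and *MtSOC1c*. The comparison asked which genes differ in an apex with little *MtSOC1a* transcript.

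Total estimated counts were 31302332 to 37266298 in the WT apex libraries and 30574854 to 33419788 in the *Mtsoc1a* apex libraries. Counts of all transcripts of a locus were summed, and 22555 of 50021 loci passed the filter on low counts. Levels are given as counts or as CPM, the counts scaled to library size by TMM, and TPM values are the authors' 1 value per group, which corrects for transcript length. Genotypes were compared with edgeR's quasi-likelihood test, fitted over the 9 apex libraries. Calls, higher or lower, needed an adjusted p (Benjamini-Hochberg) no larger than 0.05 together with a 2-fold difference, and log2FC stands for the log2 fold change, *Mtsoc1a* over WT. The apex label held: of 4 apex markers, *LFY*, *TFL1c* and *WOX9* had counts in every apex library, the *WUSCHEL* homolog *HDL* was at 0 in 1 *Mtsoc1a* library and in the triple mutant, and all 4 were at 0 in the 6 leaf libraries. Their summed level was 13 to 22.4 CPM in WT apex and 17.3 to 27.3 CPM in *Mtsoc1a* apex. The 24 photosynthesis loci, which the study took from genes raised in the triple mutant apex, were used as a sign of leaf tissue. They summed to 316 to 529 CPM in WT apex, 378 to 561 CPM in *Mtsoc1a* apex and 2830 to 3460 CPM in WT leaf. None of them was called (1 higher and 2 lower at an unadjusted p below 0.05, and 0 by DESeq2). Over log2 CPM, libraries of 1 genotype correlated at 0.96 to 0.98 and libraries of different genotypes at 0.95 to 0.97. WT replicate 2 stood apart from the other WT apex libraries, with a chi-square per degree of freedom of 67.8 and 72.5 against them and 24.9 between them. Results that rest on it are given without it. Between *Mtsoc1a* apex libraries the chi-square per degree of freedom was 13.1 (replicates 1 and 2), 32.6 (1 and 3) and 18.5 (2 and 3). *Mtsoc1a* replicate 1 had the fewest loci detected of the WT and *Mtsoc1a* apex libraries, 23951 against 25546 to 26692. In these bulk samples, fewer cells of a type and less RNA per cell cannot be told apart.

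*MtSOC1a* was called lower in the *Mtsoc1a* apex, and so were its paralogs *MtSOC1b* and *MtSOC1c* and the floral MADS loci *MtAP1* and *MtFULc*. Fitted without the triple mutant libraries, *MtSOC1a* kept its call (adjusted p = 0.000463 from edgeR). In that fit *MtSOC1b*, *MtSOC1c*, *MtAP1* and *MtFULc* lost theirs (adjusted p = 0.0738, 0.181, 0.185 and 0.0605 from edgeR). *MtSOC1a* (Medtr7g075870, chromosome 7) had 698, 865 and 582 counts in the WT libraries and 47, 22 and 29 in the *Mtsoc1a* libraries. The groups lay far apart, in the direction of the genotype labels. Its level was 20.6 ± 4.04 CPM in WT and 0.995 ± 0.348 CPM in *Mtsoc1a* (SD, n = 3 each), a log2FC of -4.36 (SE 0.22, adjusted p = 1.84e-06 from edgeR) and a 20.5-fold difference. The authors' TPM values were 29.8 for WT apex and 1.56 for *Mtsoc1a* apex. The call held under 12 of 12 alternatives at locus level, with adjusted p from 8.73e-70 to 0.0018. Neither of its transcripts passed alone (adjusted p = 0.186 and 0.218), with *Mtsoc1a* counts of 26, 0 and 29 for the first and 21, 22 and 0 for the second. Of the 12 other tested loci around *MtSOC1a* in identifier order, none was called, and 1 reached an unadjusted p below 0.05 in the direction of *Mtsoc1a* being higher.

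*MtSOC1b* (Medtr8g033250) had 169, 69 and 144 counts in WT and 14, 18 and 30 in *Mtsoc1a*. The groups did not overlap, and WT replicate 2 lay nearest to the mutant. Its log2FC was -2.51 (SE 0.40, adjusted p = 0.0246 from edgeR), from 3.66 ± 1.42 to 0.641 ± 0.274 CPM (SD, n = 3 each). *MtSOC1c* (Medtr8g033220) had 324, 165 and 225 counts in WT and 113, 102 and 108 in *Mtsoc1a*. The mutant libraries were nearly equal, at 3.31 ± 0.0851 CPM (SD, n = 3), and lay below all WT libraries, at 6.8 ± 1.84 CPM (SD, n = 3). The log2FC was -1.04 (SE 0.18, adjusted p = 0.0335 from edgeR), close to the fold threshold. *MtSOC1b* and *MtSOC1c* are paralogs whose identifiers lie close together on chromosome 8, and how reads common to both were divided between them is not known here. The *MtSOC1b* call was lost without WT replicate 1 (adjusted p = 0.0889), WT replicate 3 (0.145) or *Mtsoc1a* replicate 2 (0.101). The *MtSOC1c* call was kept only without WT replicate 2 (adjusted p = 0.00132), and was lost without WT replicate 1 (0.0889), WT replicate 3 (0.155) or *Mtsoc1a* replicates 1, 2 and 3 in turn (0.0659, 0.158 and 0.0618). Of the other 10 tested loci around this pair, none was called.

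*MtAP1* (Medtr8g066260), whose Arabidopsis counterpart specifies floral meristems and the outer floral organs, had 133, 17 and 140 counts in WT and 0, 0 and 0 in *Mtsoc1a*. WT replicate 2 was far below the other WT libraries and still above the mutant. Against a floor of 3 counts over the mutant group, *MtAP1* was at least 90.6-fold lower in *Mtsoc1a* (adjusted p = 0.0313 from edgeR). The call was kept only without WT replicate 2 (adjusted p = 0.000911). It was lost without WT replicate 1 (adjusted p = 0.0889), WT replicate 3 (0.142) or *Mtsoc1a* replicates 1, 2 and 3 in turn (0.0761, 0.101 and 0.0618). *MtFULc* (Medtr7g016630), one of 3 *FRUITFULL* genes, had 47, 21 and 51 counts in WT and 0, 0 and 0 in *Mtsoc1a*, at least 37.2-fold lower over the same floor (adjusted p = 0.0253 from edgeR). WT replicate 2 was again the lowest WT library. That call was lost without WT replicate 1 (adjusted p = 0.0889), WT replicate 3 (0.145) or *Mtsoc1a* replicate 2 (0.0923). *MtAP1b* (Medtr5g046790) was at 28, 13 and 29 counts in WT and 0, 0 and 0 in *Mtsoc1a*, but missed the threshold in edgeR (adjusted p = 0.0703) and passed by DESeq2 (0.000372).

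**Figure D1:**
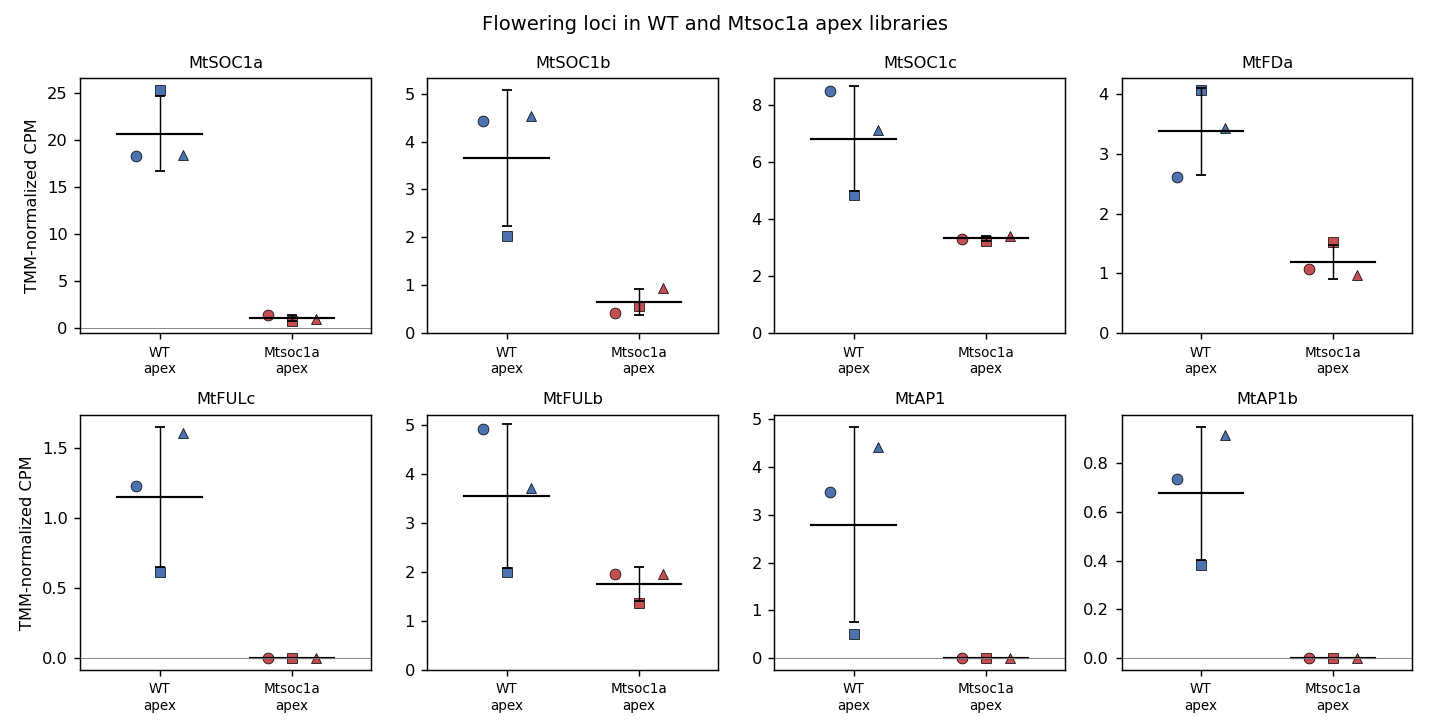
TMM-normalized CPM of 8 flowering loci in the 3 WT (blue) and 3 *Mtsoc1a* (red) apex libraries. Circles, squares and triangles are replicates 1, 2 and 3, which were treated as unpaired between genotypes, bars are means and whiskers are SD. *MtAP1*, *MtFULc* and *MtAP1b* were at 0 in all *Mtsoc1a* libraries, and WT replicate 2 (square) was the lowest WT library in 6 of the panels.

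The other genes of the flowering pathway were not called by edgeR. Of 21 loci with an RT-qPCR assay, 19 were tested, 5 were called lower (the 5 above) and 0 higher, against 0.226% of all loci called in either direction. Their median log2FC was -1.01, against -0.01 over all loci tested. The florigen genes *MtFTa1* (24, 47 and 9 counts in WT, 44, 20 and 84 in *Mtsoc1a*), *MtFTa2* and *MtFTb2* overlapped between genotypes. *MtFTb1* had 7, 8 and 12 counts in WT and 0, 2 and 3 in *Mtsoc1a* (adjusted p = 0.357 from edgeR). *MtFTc* had 12, 9 and 0 counts in WT and 0, 0 and 0 in *Mtsoc1a* and was too low to test. So was *MtTFL1a*. *MtFDa* (Medtr5g022780), a bZIP factor that partners FT proteins, had 100, 139 and 109 counts in WT and 37, 48 and 31 in *Mtsoc1a*. Its groups did not overlap, its log2FC was -1.50 (SE 0.39), and it passed by DESeq2 (adjusted p = 0.0268) and not by edgeR (0.145). *MtFULb* (Medtr4g109830) was similar, at 188, 68 and 118 counts against 67, 43 and 62, with a log2FC of -1.01 (adjusted p = 0.189 from edgeR and 0.0345 from DESeq2). Its lowest WT library was 1.99 CPM and its highest *Mtsoc1a* library was 1.96 CPM.

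*MtLFY*, the floral meristem identity regulator, had 207, 132 and 135 counts in WT and 144, 102 and 109 in *Mtsoc1a*, which overlapped (log2FC -0.32, SE 0.28, adjusted p = 0.697 from edgeR). *MtTFL1c* ranged from 165 to 420 counts in WT and from 256 to 560 in *Mtsoc1a* (adjusted p = 0.605). *MtFULa* had 9, 64 and 18 counts in WT and 10, 26 and 25 in *Mtsoc1a* (adjusted p = 0.807). *MtBFT*, a relative of *TFL1*, had 4, 24 and 17 against 0, 1 and 11 (adjusted p = 0.532), and the Polycomb locus *MtSWN* had a log2FC of 0.10 (SE 0.11, adjusted p = 0.733).

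Among these loci, 2 MADS members lay above WT in every *Mtsoc1a* library without being called. *MtSVPc* (Medtr5g066180), an SVP-like gene, had 921, 865 and 937 counts in WT and 1573, 1352 and 1016 in *Mtsoc1a*, a log2FC of 0.61 (SE 0.14, adjusted p = 0.089 from edgeR and 0.00542 from DESeq2). *MtAP3b* (Medtr5g021270), whose Arabidopsis counterpart specifies petals and stamens, had 112, 78 and 110 counts in WT and 216, 221 and 202 in *Mtsoc1a*. The log2FC was 1.18 (SE 0.26, adjusted p = 0.0868 from edgeR and 0.00212 from DESeq2). *MtAP3b* was the most abundant of the 8 floral organ markers in the apex. That list summed to 3.42 to 5.6 CPM in WT and 7.49 to 8.55 CPM in *Mtsoc1a*, and 1 of its 8 members was at 0 in each apex group. *MtAP3b* alone had a mean of 2.89 CPM in WT and 6.56 CPM in *Mtsoc1a*. Of the other members, *PI*, *AP3a*, *AGa* and *SEP3a* had lower means in *Mtsoc1a*, and *SHP* and *SEP3b* had higher means. In WT leaf, where *MtAP3b* had 415 to 469 counts, the list summed to 30.2 to 40.3 CPM.

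*MtTEM1* and *MtTEM2* are counterparts of the TEMPRANILLO repressors of *FT* in Arabidopsis. *MtTEM1* had 1661, 3309 and 1958 counts in WT and 2757, 3294 and 2374 in *Mtsoc1a* (adjusted p = 0.775), and *MtTEM2* had 441, 669 and 649 against 949, 1124 and 907 (log2FC 0.83, SE 0.27, adjusted p = 0.269 from edgeR and 0.0525 from DESeq2). The *MtTEM2* groups did not overlap and the *MtTEM1* groups did. The RT-qPCR reference *MtPP2A* had a log2FC of 0.08 (SE 0.08, adjusted p = 0.761).

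Of the 93 candidate flowering loci of the study, 83 were tested, with a median log2FC of -0.02 against -0.01 over all loci tested. Of them 5 were called lower and 0 higher, against 0.0709% and 0.155% of all loci tested. All 5 belonged to the MADS category, where 27 of 34 loci were tested, 19 lay below 0 and the median was -0.50. One more MADS locus, the SVP/AGL24 member Medtr4g093970, had 290, 499 and 292 counts in WT and 126, 182 and 178 in *Mtsoc1a* and passed by DESeq2 only (adjusted p = 0.00746, against 0.0945 from edgeR). No locus of the remaining categories was called by edgeR or by DESeq2. At an unadjusted p below 0.05 from edgeR, 6.33% of all loci tested were higher and 5.82% lower, and the MADS loci had 2 higher and 8 lower (27 tested). The age-related *SPL* loci had 0 higher and 2 lower (10 tested), the carbohydrate loci 1 higher and 0 lower (8 tested) and the GA loci 1 higher and 1 lower (17 tested). The photoperiod loci had 1 higher and 2 lower (13 tested) and the vernalization loci 0 higher and 2 lower (8 tested). *SPL2* (Medtr3g085180), of the age pathway, had 1081, 826 and 996 counts in WT and 621, 636 and 544 in *Mtsoc1a*, with no overlap and a log2FC of -0.60 (SE 0.12, adjusted p = 0.0598 from edgeR and 0.00198 from DESeq2). *PHYA*, the phytochrome A photoreceptor gene (Medtr1g085160), had 3474, 3752 and 2858 counts against 4409, 4044 and 4203, a log2FC of 0.42 (SE 0.09, adjusted p = 0.0776). *SPL2* and *PHYA* were chosen for this description after their values were seen.

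**Figure D2:**
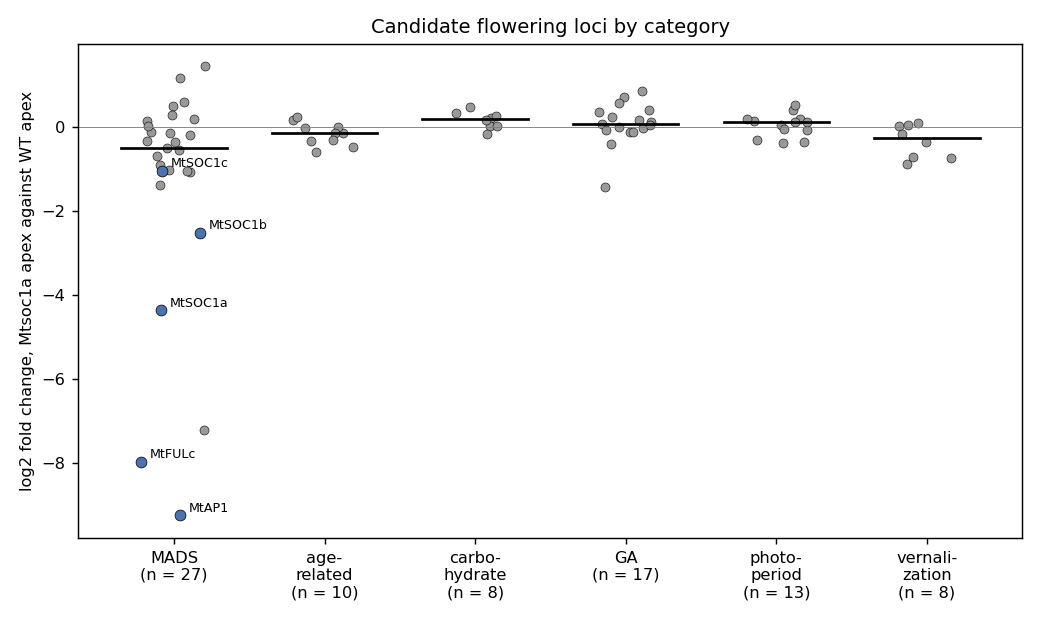
Log2 fold change of the tested candidate flowering loci between *Mtsoc1a* and WT apex, by the study's category, with black bars at the category medians. Blue points are the 5 called loci, all in the MADS category, and the unnamed low point there is *MtAP1b*.

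No homolog of the genes that SOC1 binds and regulates in Arabidopsis was called by edgeR. Of 220 loci, which the study had filtered on expression in these samples, 214 were tested and 0 were called by edgeR. At an unadjusted p below 0.05, 25 were higher and 8 lower, 15.4% of those tested against 12.1% of all loci, and DESeq2 called 2 higher and 0 lower. The median log2FC was 0.10 and 148 of the 214 lay above 0. Both loci called by DESeq2 had low counts: Medtr3g104930 had 6, 0 and 1 in WT and 26, 18 and 139 in *Mtsoc1a*, and Medtr8g469780 had 10, 3 and 2 against 50, 16 and 36. Most of the Medtr3g104930 counts came from *Mtsoc1a* replicate 3. These 2 loci were singled out after their values were seen.

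Over all loci, 35 were called higher (0.155% of those tested) and 16 lower (0.0709%) in *Mtsoc1a* apices. At the adjusted p alone there were 45 and 28, and at an unadjusted p below 0.05 there were 2740 loci (12.1%), 6.33% higher and 5.82% lower. DESeq2 called 1.14% of loci, 163 higher (0.723%) and 94 lower (0.417%), including all 51 loci called by edgeR. In each of the 51 the WT and *Mtsoc1a* libraries did not overlap, as in 16.7% of all loci tested (8.29% with *Mtsoc1a* higher and 8.43% with it lower). The counts of calls depended on single libraries. Without WT replicate 1 there were 1 higher and 4 lower, without WT replicate 3 there were 4 and 4, and without *Mtsoc1a* replicate 2 there were 12 and 12. Without WT replicate 2 there were 144 and 39, without *Mtsoc1a* replicate 1 there were 76 and 17, and without *Mtsoc1a* replicate 3 there were 34 and 38. The direction of the 51 loci was the same in each of these 6 fits, and 4 loci were called in all 6: *MtSOC1a*, Medtr7g069980, Medtr0229s0020 and Medtr6g034905. Fitted on the 6 WT and *Mtsoc1a* apex libraries alone, 10 were higher and 5 lower, 14 of them among the 51.

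**Figure D3:**
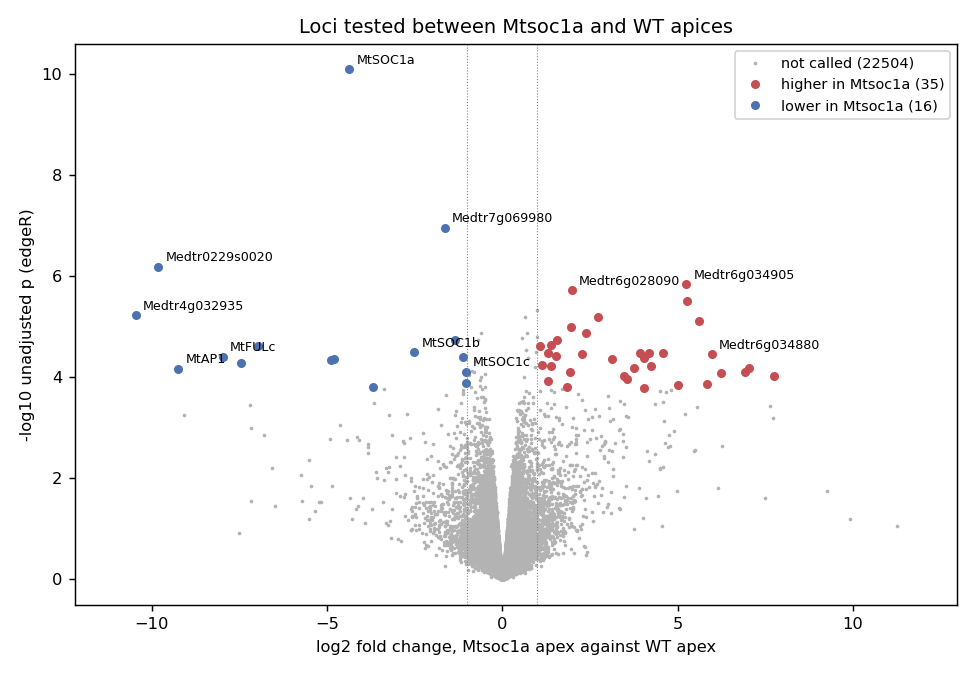
Log2 fold change between *Mtsoc1a* and WT apex against the negative log10 of the unadjusted p from edgeR for 22555 loci. Red points are the 35 loci called higher, blue points the 16 called lower, and dotted lines mark the 2-fold threshold. Fold changes of loci with 0 counts in a group depend on the prior count of the fit.

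The 16 loci called lower were the 5 flowering loci and 11 others, whose products the available reference tables do not name. Medtr7g069980, which the study annotated with cation transport, had 374, 300 and 325 counts in WT and 96, 77 and 127 in *Mtsoc1a*, with the libraries of each genotype close together. Its log2FC was -1.64 (SE 0.15, adjusted p = 0.00125 from edgeR). Medtr0229s0020, on an unplaced scaffold, had 132, 127 and 168 counts in WT and 0, 0 and 0 in *Mtsoc1a*, at least 133-fold lower over the floor of 3 counts (adjusted p = 0.00493). It was also at 0 in the 6 leaf libraries and the 3 triple mutant libraries, so WT apex was the only group in which it was detected. Medtr4g032935 had 162, 257 and 242 counts in WT apex and 0, 0 and 0 in *Mtsoc1a* apex, at least 206-fold lower (adjusted p = 0.0144, and 0.077 without WT replicate 3). In leaf it had 143, 0 and 373 counts in WT and 0, 0 and 0 in *Mtsoc1a*, and in the triple mutant apex it had 35, 97 and 129.

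Another locus at 0 in all *Mtsoc1a* apex libraries was Medtr8g467320, with 35, 17 and 31 counts in WT, at least 25.9-fold lower (adjusted p = 0.0283). Medtr5g470730 had 33, 120 and 38 counts in WT and 0, 1 and 0 in *Mtsoc1a*, 179-fold lower with a 95% counting interval of 31.7 to 7110 (adjusted p = 0.0239). WT replicate 2 gave most of its WT counts, and its log2FC was -6.97 with that library and -6.10 without it. Without *Mtsoc1a* replicate 2, which held the only mutant count, it was -8.63. Such an interval takes in counting error alone. Medtr2g101340 had 70, 29 and 35 counts against 2, 2 and 0, and Medtr2g102940 had 41, 52 and 77 against 0, 3 and 2, with log2FC values of -4.80 (adjusted p = 0.0253) and -4.90 (0.0257). In these loci the mutant libraries were all near the limit of detection. Smaller changes, of 2-fold to 3-fold, were seen in Medtr6g022470 (250, 191 and 243 counts against 93, 67 and 90, adjusted p = 0.0207), Medtr6g088445 (473, 559 and 352 against 231, 191 and 171, adjusted p = 0.0253) and Medtr5g091050 (760, 573 and 572 against 306, 262 and 305, adjusted p = 0.0455). The last of the 16 was Medtr4g099510, with 277, 81 and 89 counts against 11, 15 and 5. Of these 11 loci, Medtr7g069980 and Medtr0229s0020 kept their calls whichever library was left out. The 8 other than these and Medtr4g032935 lost theirs without WT replicate 1, WT replicate 3 or *Mtsoc1a* replicate 2 in turn, with adjusted p of at most 0.129, 0.190 and 0.206 (all 3 for Medtr5g091050). Calls of Medtr5g091050 and Medtr4g099510 were also lost without *Mtsoc1a* replicate 1 (adjusted p = 0.084 and 0.154) or replicate 3 (0.0647 and 0.127). The call of Medtr6g088445 was also lost without *Mtsoc1a* replicate 3 (0.0545) or WT replicate 2 (log2FC -0.955). The log2FC of Medtr4g099510 was -3.69 with all libraries and -3.01 without WT replicate 1, and that of Medtr2g102940 was -5.57 without *Mtsoc1a* replicate 2.

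Of the 35 loci called higher, 19 had a mean below 1 CPM in WT. Their median log2FC was 3.54 and ranged from 1.06 to 7.74. *Mtsoc1a* replicate 3 was the highest mutant library in 21 of the 35, replicate 2 in 9 and replicate 1 in 5. Medtr7g023690 had 3, 7 and 0 counts in WT and 219, 106 and 152 in *Mtsoc1a*, from 0.0944 ± 0.103 to 4.85 ± 1.53 CPM (SD, n = 3 each). Its adjusted p from edgeR was 0.0156, and 0.0889 without WT replicate 1. Its log2FC was 6.69 without WT replicate 2, against a value of 5.6 with it. Medtr4g094775 had 39, 45 and 60 against 241, 304 and 354, a log2FC of 2.72 (SE 0.37, adjusted p = 0.0144, and 0.0813 and 0.0542 without WT replicates 1 and 3). Neither carried a term in the study's annotation. Medtr8g028435 was at 0, 0 and 0 in WT and 26, 24 and 45 in *Mtsoc1a*, at least 33.8-fold higher over the floor of 3 counts (adjusted p = 0.0365, and 0.105, 0.189, 0.102 and 0.0752 without WT replicate 1, WT replicate 3, *Mtsoc1a* replicate 2 and *Mtsoc1a* replicate 3). It was named here after its values were seen.

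Several of the raised loci carried terms of carbohydrate or peroxide metabolism or of defense in the study's annotation. Medtr6g028090, annotated with carbohydrate metabolism, had 88, 56 and 70 counts in WT and 264, 224 and 300 in *Mtsoc1a*. Its libraries were tight within each genotype, at 2.05 ± 0.359 and 8.08 ± 1.21 CPM (SD, n = 3 each), and its log2FC was 1.98 (SE 0.24, adjusted p = 0.00857 from edgeR, and 0.0558 without WT replicate 1). Medtr7g029030, annotated with hydrogen peroxide breakdown, had 49, 67 and 43 counts against 212, 172 and 196, a log2FC of 1.95 (SE 0.28, adjusted p = 0.0188). Medtr4g025730, of carbohydrate metabolism, had 390, 398 and 261 against 729, 840 and 1290 (log2FC 1.56, adjusted p = 0.0207). The groups of these loci did not overlap. Medtr4g076255 and Medtr3g028720, with the same term, started from 5 to 11 and 1 to 4 counts in WT and reached 53 to 184 and 38 to 67 counts in *Mtsoc1a* (adjusted p = 0.0246 each). Medtr1g062590, annotated with defense response, had 462, 417 and 372 counts against 805, 770 and 1321 (log2FC 1.31, adjusted p = 0.0246).

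The other loci of lowest p were Medtr3g058300 (32, 26 and 26 counts in WT, 171, 126 and 115 in *Mtsoc1a*, adjusted p = 0.0202), Medtr6g472230 (128, 86 and 85 against 322, 195 and 208, adjusted p = 0.0239) and Medtr7g014570 (205, 205 and 165 against 340, 384 and 398, adjusted p = 0.0239). Their groups did not overlap. Each of these 3 loci, and of the loci with study terms above other than Medtr6g028090, lost its call without WT replicate 1 or without WT replicate 3, with adjusted p of at most 0.0891 (Medtr3g028720) and 0.181 (Medtr1g062590). Without *Mtsoc1a* replicate 2, Medtr3g058300 (adjusted p = 0.072), Medtr7g014570 (0.101), Medtr4g076255 (0.101) and Medtr3g028720 (0.102) also lost theirs. Without *Mtsoc1a* replicate 3, Medtr1g062590 and Medtr7g014570 lost theirs on the fold threshold, Medtr1g062590 at a log2FC of 0.996. Without WT replicate 2 the log2FC of Medtr3g028720 went from 4.59 to 5.19.

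The study's terms for genes raised in *Mtsoc1a* were chosen on these samples, so their direction is no independent evidence. Under edgeR, 5 of 15 carbohydrate metabolism loci were called higher (median log2FC 2.15), 2 of 12 tested defense response loci (median 2.84), 1 of 5 hydrogen peroxide loci (median 2.01) and 1 of 4 loci of abscisic acid signalling (median 2.46), and none was called lower. Of all loci tested, 0.155% were called higher. The terms that the study took from genes lowered in the triple mutant were described in the same way. They were chosen against the WT apex libraries used here, so their direction is no independent evidence either. The 13 loci of the response to abscisic acid had 1 called higher (Medtr2g035210) and a median of 0.48, with 7 higher and 0 lower at an unadjusted p below 0.05 and 3 called higher by DESeq2. Medtr2g035210 was also the called locus of abscisic acid signalling above. The xyloglucan (13 loci), chitin (6), oxidative stress (22), nitrate (4) and flavonoid (9) terms had 0 called and medians of 0.58, 0.61, 0.41, 0.26 and 0.86. At an unadjusted p below 0.05 these 5 terms had, in that order, 2, 2, 6, 0 and 1 loci higher and 1, 0, 2, 0 and 0 lower. DESeq2 called 1 xyloglucan locus higher and 1 lower and none of the other 4 terms. Of all loci tested, 6.33% were higher and 5.82% lower at an unadjusted p below 0.05 from edgeR. DESeq2 called 0.723% higher and 0.417% lower.

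Called loci were counted by chromosome from their identifiers. Chromosome 6, with 6.33% of the loci tested, held 9 of the 51 called loci, 7 higher and 2 lower, and each of the other chromosomes held 3 to 8. A stretch of chromosome 6 identifiers held 4 of the raised loci: Medtr6g034880, Medtr6g034905, Medtr6g034920 and Medtr6g034930. Medtr6g034905, annotated with cell wall organization, had 73, 57 and 26 counts in WT and 1276, 1547 and 2615 in *Mtsoc1a*, a log2FC of 5.24 (SE 0.42, adjusted p = 0.00819 from edgeR). It rose from 1.47 ± 0.572 to 56.2 ± 23.3 CPM (SD, n = 3 each), and the authors' TPM were 4.4 and 136. Medtr6g034920 had 325, 317 and 207 counts in WT and 2161, 3866 and 5894 in *Mtsoc1a* (log2FC 3.93, SE 0.42, adjusted p = 0.0246). *Mtsoc1a* replicate 3 was the highest library for both loci.

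Medtr6g034930 had 1, 2 and 4 counts in WT and 42, 92 and 135 in *Mtsoc1a* (log2FC 5.27, SE 0.67, adjusted p = 0.0118). Medtr6g034880 had 3, 0 and 0 against 49, 68 and 83, 71.1-fold higher with a 95% counting interval of 24 to 348 (adjusted p = 0.0246). The 4 loci shared the order of the mutant libraries, with replicate 1 lowest and replicate 3 highest, and *Mtsoc1a* replicate 1 still lay above all WT libraries. The calls of Medtr6g034880 and Medtr6g034920 were lost without WT replicate 1 (adjusted p = 0.0691 and 0.0889), WT replicate 3 (0.145 and 0.149) or *Mtsoc1a* replicate 2 (0.101 and 0.0853). The call of Medtr6g034930 was lost without WT replicate 1 (0.067), and its log2FC was 5.91 without WT replicate 3. The size of the Medtr6g034880 difference rests on WT replicate 1, which held its only WT counts: the log2FC was 5.97 with that library and 8.73 without it, where WT is at 0 and the value depends on the prior count. Not every locus of the stretch was higher: Medtr6g034890, between them, had 301, 176 and 199 counts in WT and 145, 182 and 205 in *Mtsoc1a* (log2FC -0.23, adjusted p = 0.742). Beyond the run, Medtr6g034955 had 51, 34 and 52 counts against 0, 6 and 6 (log2FC -3.36, adjusted p = 0.0502 from edgeR and 4.41e-06 from DESeq2). Medtr6g034870 had 16437, 14359 and 13569 against 21949, 26328 and 19908 (log2FC 0.72, adjusted p = 0.0253), under the fold threshold. The 13 tested loci around this run, the 4 called ones included, had 5 higher and 3 lower at an unadjusted p below 0.05. The run was picked for its calls, and 6.33% of all loci tested were higher and 5.82% lower at that p.

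**Figure D4:**
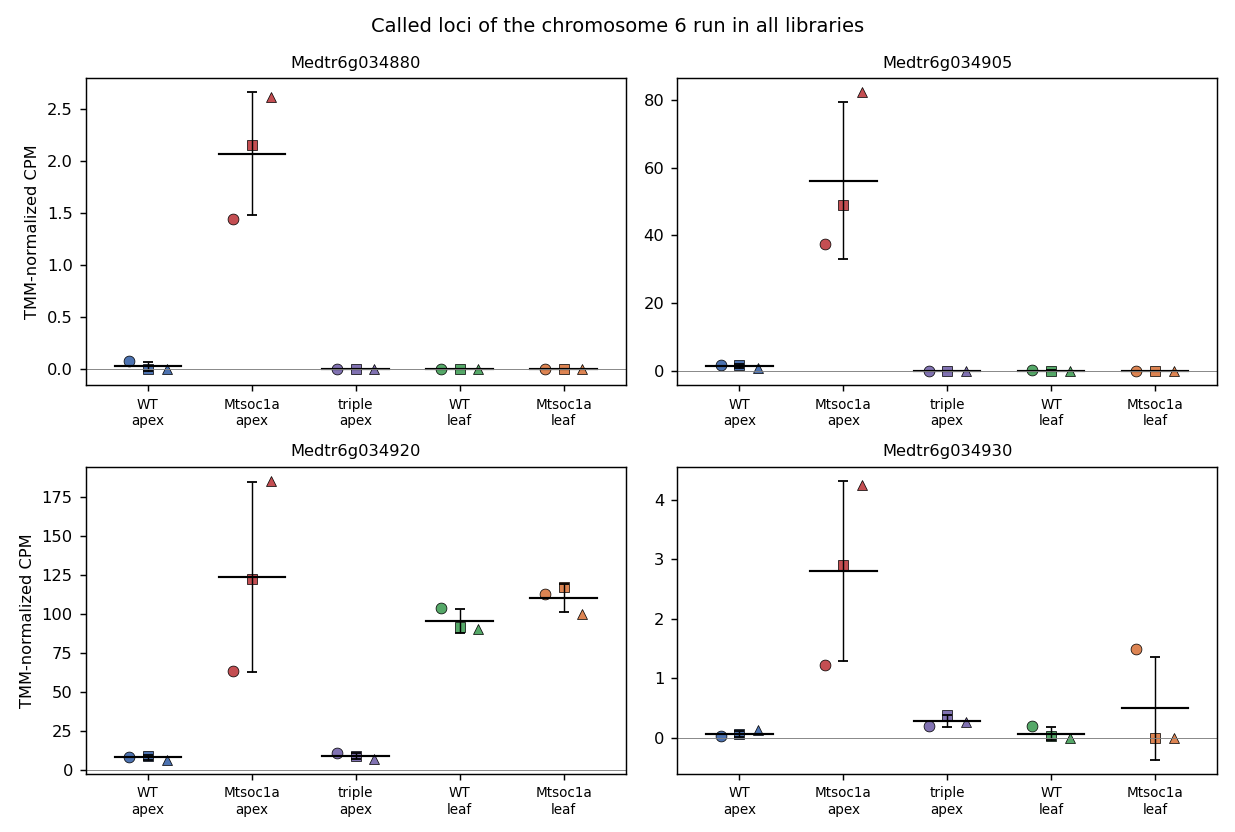
TMM-normalized CPM of the 4 called loci of the chromosome 6 run in all 15 libraries, with apex and leaf libraries scaled in separate fits. Circles, squares and triangles are replicates 1, 2 and 3, bars are means and whiskers are SD. *Mtsoc1a* apex was above WT apex in each, and Medtr6g034920 was at 90 to 117 CPM in both leaf groups.

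On chromosome 2, Medtr2g035100 and Medtr2g035210 formed a shorter run. Medtr2g035100 had 219, 158 and 182 counts in WT and 628, 551 and 1309 in *Mtsoc1a* (log2FC 2.26, SE 0.32, adjusted p = 0.0246), and Medtr2g035210, with terms of abscisic acid signalling and defense, had 18, 39 and 11 against 236, 148 and 363 (log2FC 3.54, SE 0.59, adjusted p = 0.0388). *Mtsoc1a* replicate 3 was highest in both. Of 36 tested loci around this run, 3 were called, and 11 were higher and 2 lower at an unadjusted p below 0.05. Medtr2g035100 and Medtr2g035210, around which the stretch was drawn because they were called, are among these counts. Of all loci tested, 0.226% were called, and 6.33% were higher and 5.82% lower at that unadjusted p. The third called locus, Medtr2g034720, annotated with carbohydrate metabolism, had 1943, 2479 and 1209 counts in WT and 3885, 4648 and 4467 in *Mtsoc1a* (log2FC 1.31, adjusted p = 0.0425). Its call was lost without WT replicate 1 (adjusted p = 0.129), WT replicate 3 (0.112), *Mtsoc1a* replicate 2 (0.145) or *Mtsoc1a* replicate 3 (0.086). Medtr2g035150, singled out after its values were seen, had 5, 2 and 1 against 105, 292 and 1239, most of them in *Mtsoc1a* replicate 3 (adjusted p = 0.089 from edgeR and 3.87e-07 from DESeq2). The call of Medtr2g035210 was kept only without WT replicate 2, at a log2FC of 4.20, and that of Medtr2g035100 was lost without WT replicate 1 or 3, with adjusted p of 0.198 and 0.157 at most.

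The same genotypes were compared in leaf to see which apex calls recurred there. The leaf groups differed in the summed level of leaf markers: the photosynthesis loci summed to 2830 to 3460 CPM in WT leaf and 4740 to 6500 CPM in *Mtsoc1a* leaf, with no overlap. Of these loci 23 were tested in leaf, 0 were called by edgeR, and their median log2FC there was 0.46. The part of this marker shift in the leaf values and in the differences between tissues was not tested. *MtSOC1a* was the only locus called in both tissues, lower in each, out of 51 called in apex and 47 called in leaf (0.239% of 19706 loci tested there, 0.193% higher and 0.0457% lower). In leaf it had 220, 203 and 181 counts in WT and 10, 4 and 0 in *Mtsoc1a*, a log2FC of -5.36 (SE 0.64, adjusted p = 0.0182). The leaf call was lost without any one of WT leaf replicates 1, 2 and 3 or *Mtsoc1a* leaf replicate 2. DESeq2 called 10 loci the same way in both tissues, and edgeR called 5 without WT apex replicate 2. Of the 51 apex loci, 24 were too low to test in leaf, 19 had the same sign there and 8 the opposite sign. *MtSOC1b* and *MtSOC1c* overlapped between genotypes in leaf, with 4, 17 and 9 against 7, 18 and 9 counts and 69, 131 and 63 against 52, 108 and 61 counts. *MtAP1* had 78, 64 and 90 counts in WT leaf and 54, 15 and 61 in *Mtsoc1a* leaf (log2FC -0.85, SE 0.47, adjusted p = 0.572), so it was detected in *Mtsoc1a* leaf and not in *Mtsoc1a* apex. *MtLFY*, *MtTFL1c* and *MtFDa* were at 0 in all leaf libraries.

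The difference between the apex and leaf effects was tested in the 12 libraries of 15-day-old plants, and 14 loci passed (0.0608% of 23024). Only Medtr6g028090 and Medtr6g034920 were also called in the apex. Medtr6g028090 had 2157, 1302 and 1139 counts in WT leaf and 1240, 1092 and 1312 in *Mtsoc1a* leaf, so the groups overlapped there, and the log2 effects differed by 2.22 (adjusted p = 0.0110). Medtr6g034920 had 4275, 3131 and 2890 against 4008, 3773 and 3713 in leaf, and its effects differed by 3.69 (adjusted p = 0.0110). For *MtSOC1a*, *MtSOC1b*, *MtSOC1c*, *MtFULc* and *MtAP1* the effects were not shown to differ between tissues (adjusted p = 0.709, 0.388, 0.679, 0.121 and 0.140).

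**Figure D5:**
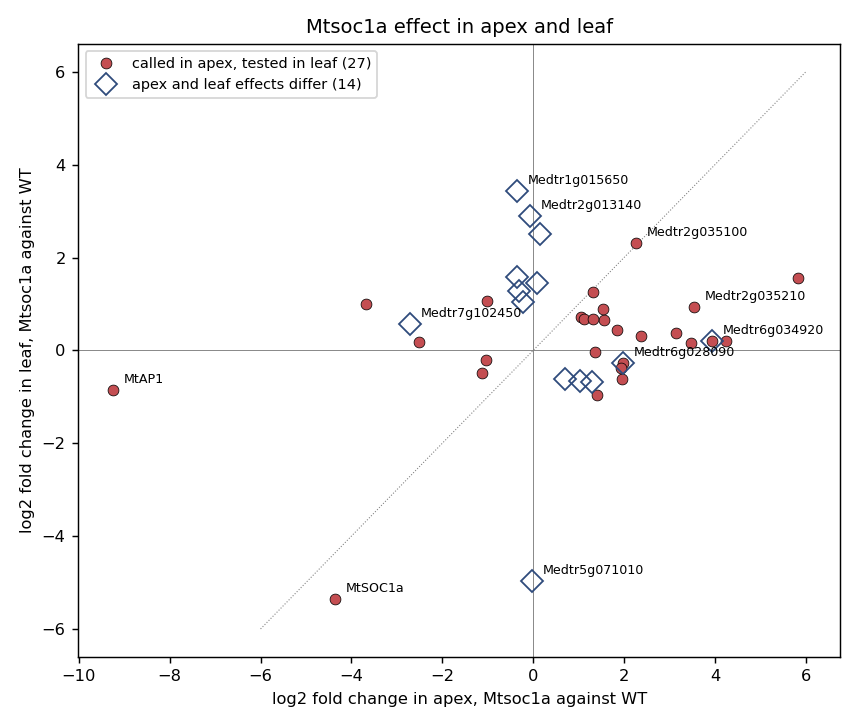
Log2 fold change of *Mtsoc1a* against WT in leaf and in apex. Red points are the 27 loci called in apex and tested in leaf, open diamonds are the 14 loci whose effects differed between the tissues, and the dotted line marks equal effects. *MtSOC1a* lies near that line, and Medtr6g028090 and Medtr6g034920 lie near 0 in leaf.

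The triple mutant apex was compared with the same 3 WT libraries, so both comparisons share their controls, and its plants were 83 days old, so genotype and age cannot be told apart there. *MtSOC1a* had a log2FC of -4.36 in *Mtsoc1a* and 0.54 in the triple mutant, where it had 413, 408 and 454 counts. The latter was under the fold threshold (adjusted p = 0.0445 from edgeR). *MtSOC1b* had a log2FC of -2.51 in *Mtsoc1a* and -0.49 in the triple mutant, where it was not called (adjusted p = 0.38 from edgeR). *MtSOC1c* had -1.04 and 2.41, *MtFULb* had -1.01 and 2.78, and *MtAP1*, with 1, 0 and 0 counts in the triple mutant, was near the limit of detection in both mutants. Medtr7g069980 had -1.64 in *Mtsoc1a* and 3.62 in the triple mutant, where it had 1715, 1425 and 1874 counts. Medtr6g034905 had 5.24 and -4.85, with 2, 0 and 0 counts in the triple mutant. Of the 35 loci called higher in *Mtsoc1a*, 2 were called higher and 7 lower in the triple mutant, where 2.26% and 6.4% of all loci were called, 8.66% in all.

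Counted by transcript, 4 transcripts were called in *Mtsoc1a* apex (0.0154% of those tested), and 2 of them belonged to loci that were not called. Medtr0245s0010.1 had 0, 0 and 0 counts in WT apex and 546, 471 and 592 in *Mtsoc1a* apex (adjusted p = 0.000385 from edgeR). The other expressed transcript of that locus had 1981, 1369 and 1411 against 1511, 1099 and 1071, so the locus as a whole had a log2FC of 0.25 (adjusted p = 0.476). Medtr0245s0010.1 was also present in the triple mutant apex, at 277, 276 and 411 counts. In leaf it had 0, 61 and 56 counts in WT and 0, 85 and 37 in *Mtsoc1a*. In the other locus, Medtr7g111760.2 had 105, 173 and 255 counts in WT apex and 0, 0 and 0 in *Mtsoc1a* apex (adjusted p = 0.0244), while Medtr7g111760.1 had 844, 594 and 486 against 819, 698 and 708. In the triple mutant Medtr7g111760.2 had 104, 88 and 107 counts, and in leaf it had 0, 0 and 70 in WT and 0, 0 and 0 in *Mtsoc1a*. Each of these transcripts was at 0 in 1 genotype only among the apex libraries of 15-day-old plants. Salmon estimates the division of reads between transcripts of a locus, and the counts do not show how certain that division is.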

How the data were processed

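Poly(A) RNA of shoot apices and leaves was sequenced in strand-specific libraries (150 bp paired-end reads). After trimming (fastp), the authors quantified transcripts of the Mt4.0v2 annotation in Salmon 0.8.2 and compared groups in DESeq2 1.24.0. The authors deposited the resulting expected counts per library and 1 TPM value per group. All 15 count columns were matched to samples by name. The column of *Mtsoc1a* apex replicate 3 was deposited unrounded, unlike the other 14. Here counts were rounded and summed to loci, scaled by TMM and fitted with edgeR's quasi-likelihood test (R 4.3.3, edgeR 4.0.16, minimum count 10) over the 9 apex libraries, the 6 leaf libraries or the 12 libraries of 15-day-old plants. P-values set the difference between groups against the spread between pooled replicates (3 per group), estimated over all libraries of a fit. In the apex fit these included the triple mutant libraries.

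Alternatives were DESeq2 1.42.0, its size factors in edgeR, no filter, no fold threshold, other sets of libraries, transcripts in place of loci, a replicate block and each library left out. Named loci were the *SOC1* and RT-qPCR loci, *MtTEM1*, *MtTEM2* and *MtPP2A*, up to 15 loci of lowest p called in each direction with groups that did not overlap, called list members, called runs on 1 chromosome with identifiers at most 300 apart, loci called in both tissues, 5 loci of lowest p in each direction of the tissue difference, and transcripts called without their locus. The members, lists and rules were chosen with earlier results of these data known. Gene lists and terms came from the study's tables. Marker lists that needed product names, nodule genes among them, were left out because no identifier matched the gene table at hand. For a group at 0 in all libraries, folds were bounded with 3 counts summed over its libraries.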

Additional observations from a re-analysis of the deposited data

Results flagged for a closer look

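The *Mtsoc1a* effect differed between apex and leaf in 14 loci by edgeR's test of the difference over the 12 libraries of 15-day-old plants (DESeq2 called 218). Differences are log2 fold change in apex minus that in leaf. They were higher in apex for Medtr6g028090 (2.22), Medtr6g034920 (3.69), Medtr3g479620 (1.95), Medtr5g071010 (5.05), Medtr4g089055 (1.30) and Medtr1g012520 (1.67). They were lower in apex for Medtr7g102450 (-3.29), Medtr1g015650 (-3.82), Medtr2g019600 (-1.29), Medtr2g013140 (-2.98), Medtr4g064967 (-1.63), Medtr1g090693 (-1.39), Medtr8g100065 (-1.97) and Medtr2g022460 (-2.38).

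In Medtr3g479620 the mutant was above WT in every apex library (64, 48 and 41 counts in WT, 122, 111 and 117 in *Mtsoc1a*) and below it in every leaf library (380, 357 and 455 against 258, 226 and 254), although neither tissue's effect was called (adjusted p = 0.0878 in apex and 0.203 in leaf). Medtr4g089055 had the same arrangement, at 1163, 1005 and 973 against 1705, 1705 and 1366 in apex and 2082, 2104 and 1996 against 1077, 1269 and 1613 in leaf. Medtr7g102450 had 72, 56 and 82 counts in WT apex and 11, 6 and 13 in *Mtsoc1a* apex, and 5208 to 6689 and 5305 to 10581 in the leaf groups.

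Medtr1g015650 and Medtr2g013140 had overlapping groups in apex and higher counts in *Mtsoc1a* leaf, with 43, 28 and 29 against 248, 327 and 484 and 128, 126 and 142 against 731, 768 and 1447 in leaf (adjusted p = 0.00344 and 0.0054). Both were much more abundant in apex, at 63.6 ± 30.1 and 562 ± 194 CPM in WT apex (SD, n = 3), and the part of apex tissue in the leaf samples was not tested. The 4 apex markers were at 0 in all leaf libraries. Medtr5g071010 fell in neither tissue by its own test, with 21, 11 and 12 counts in WT leaf and 1, 0 and 0 in *Mtsoc1a* leaf (adjusted p = 0.129), and 305 to 414 and 282 to 365 counts in the apex groups.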

How the results depend on the processing

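No locus among the 51 called in the apex changed sign under any alternative. Main counts were 35 loci higher and 16 lower, 5 called candidate and 5 called RT-qPCR loci, 0 homologs, 1 locus called in apex and leaf, and 14 with different effects in the tissues. DESeq2 gave 163, 94, 9, 9, 2, 10 and 218. Without the filter on low counts there were 53 higher and 29 lower, and without the fold threshold 28 lower. The 6 WT and *Mtsoc1a* apex libraries alone gave 10 higher, 5 lower, 1 candidate and 1 RT-qPCR locus, and the 12 libraries of 15-day-old plants gave 9, 9, 3 and 3. Transcripts as deposited gave 2, 2, 0 and 0, and the transcripts of *MtSOC1a* had log2 fold changes of -4.45 (adjusted p = 0.186) and -4.24 (0.218). Leaving out each library gave 1 to 144 higher, 4 to 39 lower, 1 to 7 candidate and 1 to 7 RT-qPCR loci, 0 to 5 called in both tissues and 1 to 39 with different effects. The cause was not tested. With a replicate block there were 23 higher, 11 lower, 3 candidate and 3 RT-qPCR loci, and 8 with different effects. Same-numbered apex deviations correlated at 0.115, -0.0907 and -0.206, and 1 of 6 apex libraries correlated best with its own number. In leaf, same-numbered deviations correlated at 0.345, 0.381 and 0.0767, and those of other numbers at -0.374 to 0.0632. Whether the numbers pair the samples was not tested, and the main fits treated them as unpaired. Low counts limit the loci at 0 in a group, for which only bounds are given.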
